A study of Homo sapiens with 6 samples.

Results

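Homeobox genes encode transcription factors that bind DNA through the homeodomain, and 103 of them were followed here among 14884 genes that the array annotation named. The genes were chosen by symbol: HOXA, HOXB, HOXC or HOXD and a digit, MEIS other than MEIS1, and the symbols beginning PBX, NKX, LHX, PAX, DLX, IRX, OTX, MSX, TGIF, PITX or POU, and SIX2 to SIX6, with antisense names left out. This gave 27 HOX genes and 76 genes of other families, of which the largest were POU with 17, NKX with 12, and LHX and PAX with 8 each. 99 of the 103 are protein-coding, and MEIS3P1, MSX2P1, POU5F1P3 and POU5F1P4 are pseudogenes. The symbol rule also took in POU2AF1 and POU2AF3, which encode coactivators of POU proteins and have no homeodomain, and some PAX genes whose proteins bind DNA mainly through the paired domain. HOXA2 was the only HOXA gene that the annotation named singly, and the other HOXA genes were not analysed here.

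The cells were THP-1, an established line from a human acute monocytic leukaemia, transduced with the lentiviral vector psi-LVRU6GP either empty (control) or carrying an shRNA against RKIP, the kinase inhibitor protein encoded by PEBP1. Both groups were selected and kept in 1.5 µg/mL puromycin, so the drug and the vector backbone are common to them and only the hairpin differs. The control carried no hairpin, so an effect of expressing any shRNA cannot be told apart from an effect of lower RKIP. Each group had 3 arrays, described in the labels as biological replicates, and the text does not say whether they came from separate transductions or cultures. A p-value here therefore sets the group difference against the spread between these arrays, moderated across genes, and part of that spread may be technical. The question was which genes differ in expression when RKIP is knocked down in leukaemia cells.

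HOX genes lie in clusters and are expressed in an order along the body axis in the embryo, and several are also active in blood stem and progenitor cells and in leukaemias with KMT2A fusions, a fusion that THP-1 carries. HOX proteins bind DNA weakly alone and do so with PBX and MEIS partners, which belong to the TALE class of homeodomain proteins. Trithorax complexes keep HOX clusters active and polycomb complexes keep them silent. The other families named here mostly pattern tissues such as the brain, eye, kidney, limb and face.

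In the arrays, values ran from 0.72 to 14.0 on a log2 scale with array medians between 4.06 and 4.10. PEBP1 was measured at 9.52, 9.77 and 9.75 in the control arrays and at 8.25, 8.18 and 8.24 in the RKIP shRNA arrays, a change of -1.46 (limma adjusted p 0.000228), so the knockdown was present in all 3 arrays. Of 12 myeloid markers, 6 were measured and ANPEP, SPI1, CSF1R, LYZ and MPO were above the median of all rows, while CD14 was below it. No B cell and no erythroid marker was measured, and of the epithelial markers KRT8, KRT18 and KRT19 were above the median and EPCAM was below. The summed level of the measured myeloid markers, each put back on a linear scale before summing and then logged, was 12.8 to 12.9 in control and 13.3 to 13.4 in RKIP shRNA arrays. The same sum for the epithelial list was 8.57 to 8.64 in control and 8.32 to 8.41 in RKIP shRNA arrays, and the part of either in the changes below was not tested. MPO, at means of 12.8 in control and 13.0 in RKIP shRNA arrays, makes up most of the summed myeloid level. Of the myeloid markers, LYZ, ANPEP, SPI1 and MPO were called higher by limma, while CSF1R changed by 0.22 and CD14 by -0.06, neither called. Of the epithelial ones, KRT18 alone was called, at -0.29, while KRT8 changed by -0.07, KRT19 by 0.04 and EPCAM by 0.12. The T cell marker CD2, above the median, was at 4.59, 4.56 and 4.82 in control and 4.53, 4.53 and 4.50 in RKIP shRNA arrays, a change of -0.14 that was not called although the groups do not overlap.

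In the comparison of RKIP shRNA with control, 8 homeobox genes changed, 7 lower and 1 higher. HOXB9, POU4F1, TGIF1, MEIS3, PAX2, SIX4 and HOXC4 fell, and IRX3 rose. A gene was called changed when limma's moderated test, adjusted by Benjamini-Hochberg over all 14884 genes, gave p under 0.05. Called genes were 7.77% of the 103, where 20.2% of all genes tested were called; for the lower direction the shares were 6.8% and 10.2%, and for the higher direction 0.971% and 10.0%. Many of the homeobox genes lay low on the array: 47.6% had a 6-array mean below the median of all rows, 4.08, against 35.1% of all genes tested. Among genes at or above that median, 8 of 54 homeobox genes, 14.8%, were called, against a background of 29.2%. Below it limma called 0 of 49, with 2 at an unadjusted p under 0.05, against a background of 3.66%.

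The change of a typical homeobox gene was small. The median log2 change was 0.04 over the 103 and 0.02 over all genes, the median size of a change was 0.12 against 0.15, and the median standard error was 0.11 against 0.10. A change of under 0.25 in size was measured in 86 of the 103. The 3 RKIP shRNA arrays and the 3 control arrays did not overlap for 22 homeobox genes, or 21.4%, where 37.9% of all genes showed this. With 3 arrays against 3 an exact permutation test over the 20 assignments cannot give less than p = 0.10 in a two-sided test, and each of the 8 called genes gave that p. The number called lower depended on the arrays used: it was 4 without control replicate 1, 4 without control replicate 3, 3 without RKIP shRNA replicate 1 and 4 without RKIP shRNA replicate 3. Of the genes named as changed, HOXB9, POU4F1 and TGIF1 were called whichever array was left out, and the rest were not.

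**Figure D1:**
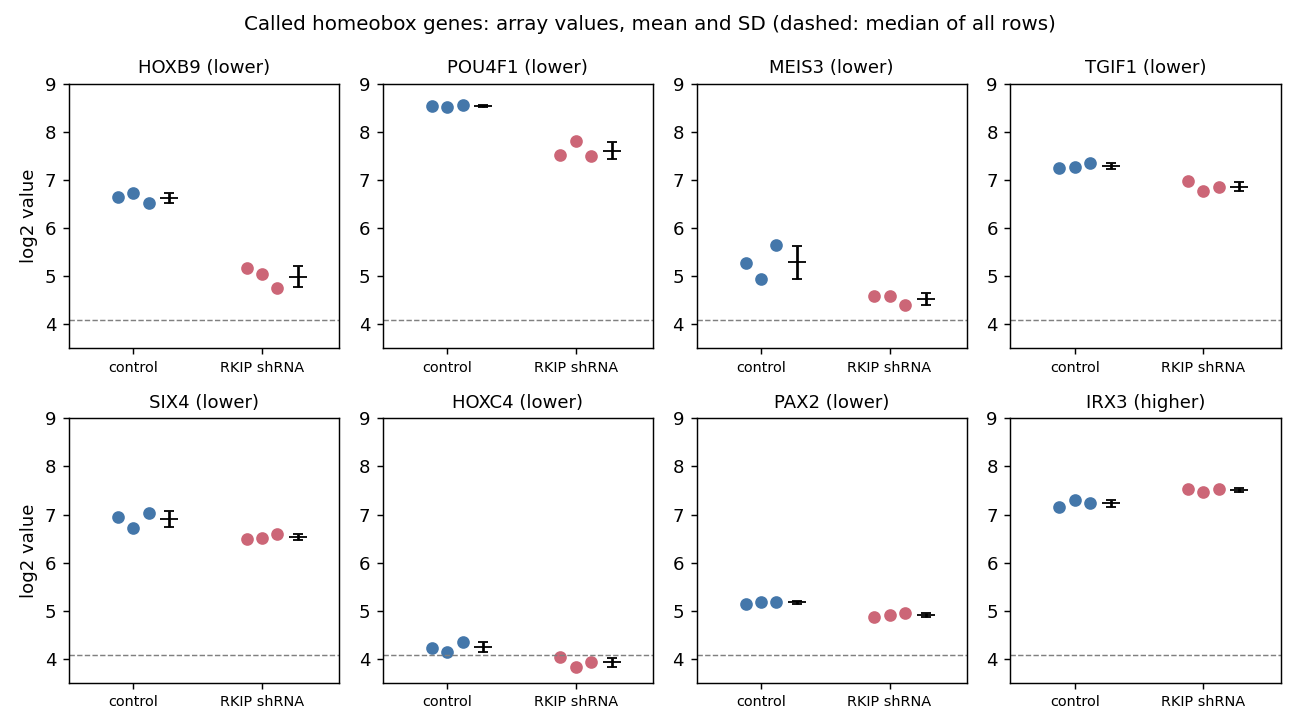
Log2 values of the 8 called homeobox genes in each of the 3 control and 3 RKIP shRNA arrays, with group means. Every gene shows groups that do not overlap, from HOXB9 with a change of -1.64 to PAX2 with -0.27 and IRX3 with 0.27.

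**Figure D2:**
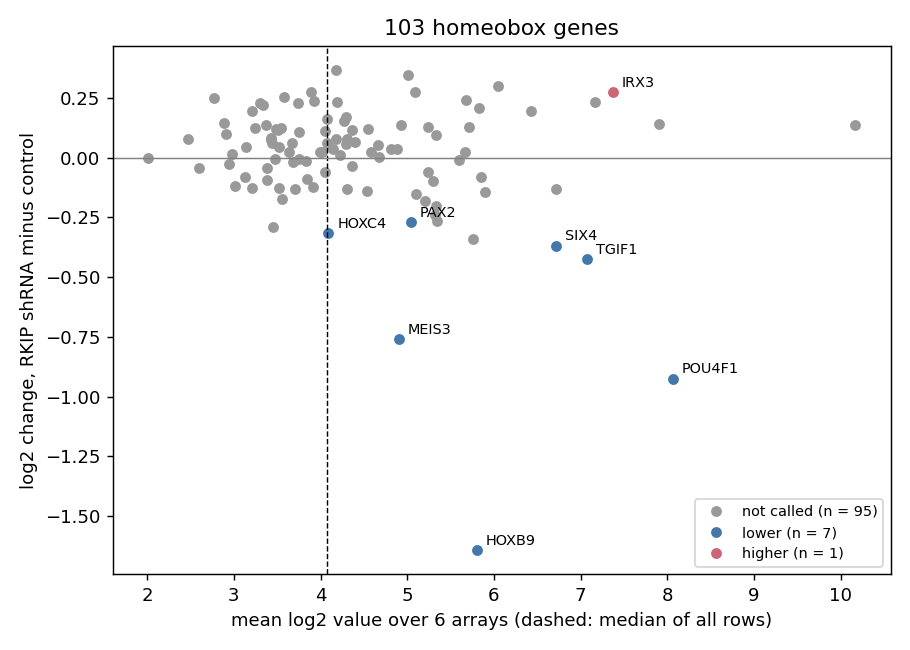
Log2 change of each of the 103 homeobox genes (RKIP shRNA minus control) against its mean level over 6 arrays, with the median of all rows, 4.08, marked. All 8 called genes have a 6-array mean above the median, and none of the 49 genes below it was called.

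HOXB9, a posterior gene of the HOXB cluster, changed the most of the homeobox genes. Its values were 6.64, 6.72 and 6.52 in control and 5.16, 5.04 and 4.74 in RKIP shRNA arrays, with means of 6.63 ± 0.10 and 4.98 ± 0.22 (SD, n = 3). Every control array was higher than every RKIP shRNA array by more than the spread within either group. The change was -1.64 (SE 0.12, 95% interval -1.93 to -1.36), or 3.12-fold lower, with a limma adjusted p of 0.000437. In bulk RNA, fewer expressing cells and less RNA per cell cannot be told apart. The call stayed in each of the 6 fits that left out an array, where the highest adjusted p was 0.00375.

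No other gene of the HOXB cluster was called. The other 9 HOXB genes, HOXB1, HOXB2, HOXB3, HOXB4, HOXB5, HOXB6, HOXB7, HOXB8 and HOXB13, were below the median of all rows in both groups and ranged from a change of -0.13 in HOXB8 to 0.25 in HOXB6. HOXB8, which lies beside HOXB9, was at 3.58, 3.55 and 3.60 in control and 3.52, 3.72 and 3.11 in RKIP shRNA arrays. At such levels a gene that is off cannot be told from one that is weakly expressed, and a change in it would be compressed.

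HOXC4, an anterior gene of the HOXC cluster, was called at a level near the median. Its values were 4.23, 4.15 and 4.35 in control and 4.03, 3.84 and 3.93 in RKIP shRNA arrays, a change of -0.32 (95% interval -0.52 to -0.12, limma adjusted p 0.0403). The groups do not overlap, and the RKIP shRNA mean is below the median of all rows where the control mean is above it. The call was lost in all 6 fits that left out an array, with adjusted p from 0.0555 to 0.121. The 250 bases before its RefSeq start are shown with their 2 matches to the CCAAT box, a common promoter element, in capitals as ATTGG on the strand printed (GRCh38.p14, chr12:54016638-54016887, plus strand).

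HOXC4: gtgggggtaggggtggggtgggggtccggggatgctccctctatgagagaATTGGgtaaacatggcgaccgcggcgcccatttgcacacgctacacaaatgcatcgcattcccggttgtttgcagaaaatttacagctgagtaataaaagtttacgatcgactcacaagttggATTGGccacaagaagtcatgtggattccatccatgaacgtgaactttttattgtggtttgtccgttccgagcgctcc

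Besides HOXC4, the HOXC genes held 3 above the median in both groups, none called. HOXC8 was at 5.24, 5.42 and 5.19 in control and 5.14, 5.59 and 5.40 in RKIP shRNA arrays, a change of 0.09. HOXC9 was at 4.40, 4.34 and 4.05 against 4.34, 4.37 and 4.25, a change of 0.06. HOXC12 was at 5.29, 5.33 and 5.40 against 5.30, 5.19 and 5.24, a change of -0.10. In all 3 the groups overlap. HOXC10 changed by 0.12, HOXC11 by -0.09 and HOXC13 by 0.25, all below the median in both groups and none called.

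The HOXD cluster had 6 genes above the median in both groups, none of which was called, and limma gave no HOXD gene an unadjusted p under 0.05. HOXD13, the last gene of the cluster and a limb patterning factor, was at 10.11, 10.08 and 10.10 in control and 10.22, 10.26 and 10.22 in RKIP shRNA arrays. The groups do not overlap, but the change of 0.14 was not called (95% interval -0.01 to 0.28, limma adjusted p 0.176). It was called with a trended and robust prior (limma adjusted p 0.0219) and in no fit that left out an array. HOXD10 was at 5.62, 5.32 and 5.35 against 5.14, 5.23 and 5.33, a change of -0.20. HOXD11 was at 5.46, 5.39 and 5.45 against 5.09, 5.47 and 5.03, a change of -0.24. The HOXD11 groups overlap through RKIP shRNA replicate 2, and without that array its limma adjusted p was 0.0233. In the other 5 fits that left out an array it was 0.312 to 0.464, and in the 8 other alternatives 0.128 to 0.372. HOXD4 was at 5.14, 5.11 and 5.29 against 5.17, 5.10 and 4.81, a change of -0.15. A second probe of HOXD4 changed by 0.04, at means of 3.87 in control and 3.91 in RKIP shRNA arrays, below the median. HOXD8 was at 4.65, 4.65 and 4.72 against 4.57, 4.90 and 4.55, and HOXD12 at 4.47, 4.41 and 4.58 against 4.38, 4.93 and 4.50. Their changes were 0.00 and 0.12 and their groups overlap. HOXD1 changed by 0.02, HOXD3 by -0.13 and HOXD9 by 0.12, all below the median in both groups. HOXA2, at 4.25, 3.99 and 3.70 in control and 3.83, 4.20 and 3.98 in RKIP shRNA arrays, was below the median in both groups and changed by 0.03.

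**Figure D3:**
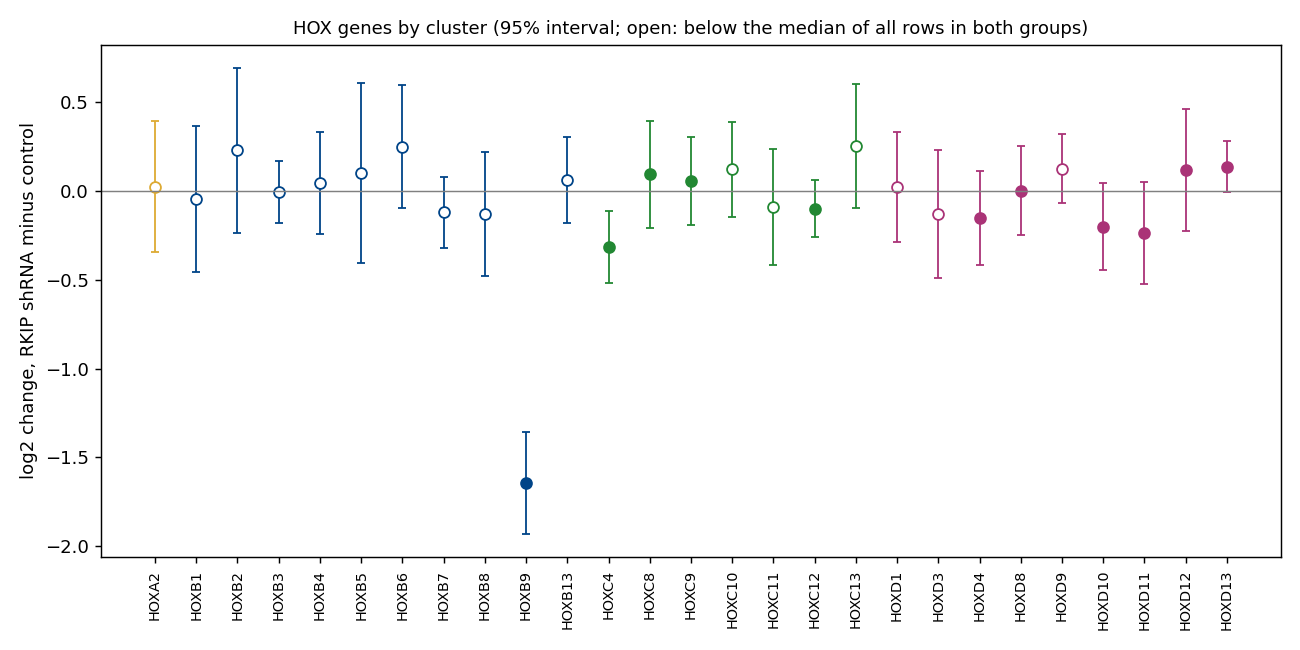
Log2 change (RKIP shRNA minus control) with 95% intervals for the 27 HOX genes, by cluster. HOXB9 at -1.64 stands far from the other 26, which run from -0.32 in HOXC4 to 0.25 in HOXC13.

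The microRNA genes inside the HOX clusters gave no call. They matter here because mature miR-196, made from genes in the HOXA, HOXB and HOXC clusters, is known to target HOX messages. Its seed, bases 2 to 8, is in capitals and is the same in miR-196a and miR-196b.

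hsa-miR-196a-5p: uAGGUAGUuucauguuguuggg
hsa-miR-196b-5p: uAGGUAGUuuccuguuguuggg

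The mature sequences are from RefSeq, at chr17:48632532-48632553 (minus strand) for MIR196A1, at chr12:53991762-53991783 (plus strand) for MIR196A2 and at chr7:27169528-27169549 (minus strand) for MIR196B, in GRCh38.p14. MIR196A1, beside HOXB9, was at 3.24, 2.67 and 3.27 in control and 3.27, 3.82 and 3.54 in RKIP shRNA arrays, a change of 0.48 (limma adjusted p 0.146). MIR196A2 changed by 0.16 and MIR196B by -0.19, neither called, and MIR10B and MIR615 by 0.09 and -0.03. An array of this kind measures the gene's transcript, and the mature microRNA was not measured. Of the 5, MIR196B alone was above the median of all rows in both groups.

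Among the partners of HOX proteins, MEIS3 fell and the PBX genes gave no call. MEIS3 was at 5.27, 4.94 and 5.64 in control and 4.59, 4.59 and 4.39 in RKIP shRNA arrays. The groups do not overlap, and the control arrays are the more spread, with means of 5.28 ± 0.35 and 4.52 ± 0.12 (SD, n = 3). The change was -0.76 (95% interval -1.17 to -0.35), or 1.69-fold, with a limma adjusted p of 0.0216; the call was kept without control replicate 2 or control replicate 3 and lost in the other 4 fits, where the highest adjusted p was 0.0707. MEIS2 was at 6.96, 7.14 and 7.06 against 7.29, 7.25 and 7.32, a change of 0.23 that was not called (limma adjusted p 0.0646). Its second probe, much dimmer at means of 4.15 in control and 4.19 in RKIP shRNA arrays, changed by 0.03. PBX2 was at 7.79, 7.89 and 7.83 against 7.99, 7.96 and 7.99, a change of 0.14 (limma adjusted p 0.182). Its 5 further probes changed by 0.11 to 0.14. Their means equal or nearly equal those of the kept probe or of each other, so they are not independent measurements. PBX3 was at 6.04, 5.97 and 5.89 against 5.70, 5.87 and 5.89, and PBX4 at 4.08, 4.16 and 4.33 against 4.21, 4.29 and 4.53. Those changes of -0.14 and 0.15 were not called, and the pseudogene MEIS3P1 changed by 0.02.

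TGIF1, a TALE class repressor that limits TGF-beta and retinoid signalling, also fell. It was at 7.25, 7.26 and 7.35 in control and 6.97, 6.76 and 6.85 in RKIP shRNA arrays, and the groups do not overlap. The change was -0.43 (95% interval -0.61 to -0.24), or 1.34-fold, with a limma adjusted p of 0.0097. It was called in all 6 fits that left out an array, with a highest adjusted p of 0.0403.

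POU4F1, a POU-domain factor of sensory neurons that is also expressed in some leukaemias, had the second largest fall among the 103. Its values were 8.53, 8.51 and 8.55 in control and 7.51, 7.81 and 7.49 in RKIP shRNA arrays, with means of 8.53 ± 0.02 and 7.60 ± 0.18 (SD, n = 3). The control arrays lie close together, and all 3 RKIP shRNA arrays are below them. The change was -0.92 (SE 0.10, 95% interval -1.15 to -0.69), or 1.90-fold, with a limma adjusted p of 0.00128 and a highest adjusted p of 0.00797 when an array was left out. The 250 bases before its RefSeq start are shown with the 1 match to the TALE core TGACAG, the letters that MEIS and TGIF proteins prefer, in capitals as CTGTCA on the strand printed; its first base lies 105 bases before the start (GRCh38.p14, chr13:78603553-78603802, minus strand).

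POU4F1: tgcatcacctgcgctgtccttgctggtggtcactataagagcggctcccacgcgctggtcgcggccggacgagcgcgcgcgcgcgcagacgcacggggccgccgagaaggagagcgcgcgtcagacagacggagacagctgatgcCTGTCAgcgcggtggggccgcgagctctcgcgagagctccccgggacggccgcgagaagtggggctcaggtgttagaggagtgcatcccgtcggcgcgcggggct

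In all, 6 motifs were searched on both strands of 35116 RefSeq promoters of 250 bases. The TALE core TGACAG was found in 13.0% of them and the CCAAT box, CCAAT, in 32.0%. The octamer bound by POU proteins, ATGCAAAT, was found in 1.63%, and the homeodomain palindrome TAATTA, which is its own reverse complement, in 4.35%. The letters of posterior HOX proteins, TTTATGG, were found in 2.3%, and the TATA box, TATAAA, in 10.7%. The TALE core was also found at both starts of PAX2 and at 2 of the 7 starts of TGIF1 in the RefSeq table. It was found at no start of HOXC4, SIX4 or MEIS3. HOXB9 and IRX3 had no start among these promoters, so they were not searched. Such a match is a description of letters, not a binding site. The motif search was added after the values had been seen.

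The other 16 POU genes gave no call. POU3F2, a neural factor below the median in control only, had the largest rise in mean of the 103 and was at 4.01, 3.93 and 4.06 in control and 4.44, 4.11 and 4.55 in RKIP shRNA arrays, a change of 0.37 (limma adjusted p 0.0753) with groups that do not overlap. POU2F2 and the pseudogene POU5F1P3 also had groups that do not overlap, with changes of 0.23 and 0.21. POU6F1 changed by -0.26. POU1F1, POU2AF1, POU2F2, POU2F3, POU3F4, POU4F2, POU5F1 and POU5F1B lay below the median in both groups, POU2AF3, POU3F1 and POU3F2 in control only.

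IRX3, a patterning factor of the Iroquois family, was the only called gene that rose. It was at 7.15, 7.30 and 7.25 in control and 7.53, 7.46 and 7.54 in RKIP shRNA arrays, and the groups do not overlap. The change was 0.27 (95% interval 0.11 to 0.44), or 1.21-fold, with a limma adjusted p of 0.035; it was lost in all 6 fits that left out an array, where the adjusted p ran from 0.0554 to 0.105. IRX5, which shares a cluster with IRX3, was at 5.66, 5.64 and 5.66 against 5.64, 5.61 and 5.79 and changed by 0.02. IRX2 changed by 0.23 (limma adjusted p 0.0968) and was below the median in control only, and IRX6, below in both groups, changed by -0.08.

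SIX4 and PAX2, factors active in kidney development, were both called lower. SIX4 was at 6.94, 6.73 and 7.04 in control and 6.49, 6.51 and 6.60 in RKIP shRNA arrays, a change of -0.37 (95% interval -0.59 to -0.14, limma adjusted p 0.0355). PAX2 was at 5.15, 5.19 and 5.19 against 4.86, 4.91 and 4.95, a change of -0.27 (95% interval -0.42 to -0.12, limma adjusted p 0.0261). Neither pair of groups overlaps. The SIX4 call was kept only without control replicate 2, and the PAX2 call only without RKIP shRNA replicate 3, of the 6 fits that left out an array. SIX2 changed by 0.28 and was not called, and PAX5, a B cell factor, was at 6.74, 6.88 and 6.72 against 6.72, 6.67 and 6.55 and changed by -0.13. PAX1, PAX3, PAX6, PAX8, PAX9 and SIX6 were below the median in both groups.

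The remaining families had no called gene. In the DLX family, limb and forebrain factors, DLX2 was at 5.99, 5.93 and 5.87 in control and 5.42, 5.80 and 5.55 in RKIP shRNA arrays, a change of -0.34 that was not called (limma adjusted p 0.0657), and DLX1, in the same gene pair, changed by 0.20. DLX3, DLX5 and DLX6 were below the median in both groups. The 12 NKX genes changed by -0.13 in NKX2-2 to 0.35 in NKX2-6, with NKX2-1, NKX2-3, NKX2-5 and NKX6-1 below the median in both groups. NKX2-3, a factor of spleen and gut, changed by 0.24 (limma adjusted p 0.0665) and NKX2-5 by 0.28 (limma adjusted p 0.193), the 2 NKX genes with groups that do not overlap. The 8 LHX genes ranged from -0.29 in LHX4 to 0.30 in LHX3, and LHX1, LHX4, LHX5, LHX8 and LHX9 were below the median in both groups. MSX1 and MSX2 changed by 0.04 and 0.17, OTX1 and OTX2 by -0.08 and 0.08, and PITX1 and PITX3 by 0.13 and 0.06. Of these, OTX2 was below the median in both groups, PITX3 in control only, and MSX2P1 in RKIP shRNA only. In all, 45 of the 103 lay below the median in both groups, 5 in control only, 2 in RKIP shRNA only and 51 in neither.

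Other homeobox genes, and the complexes that hold HOX clusters on or off, are given as counts. Of 36 further homeobox genes, 6 fell and none rose by limma's adjusted p (2 higher and 9 lower at an unadjusted p under 0.05), with a median change of 0.04 against 0.02 over all genes. The share called was 16.7%, all of it lower. Of all genes tested 10.2% were called lower and 20.2% in either direction. At or above the median of all rows 29.2% were called in either direction. HLX, a blood and gut factor, was at 6.65, 6.54 and 6.33 in control and 5.72, 5.82 and 5.82 in RKIP shRNA arrays, a change of -0.72 (limma adjusted p 0.00299). SATB1, an organiser of chromatin in T cells, changed by -0.52 and HMBOX1 by -0.38, and those 3 were called whichever array was left out. ZHX2, ZHX3 and CUX1 changed by -0.29, -0.30 and -0.28 and were each called in only 1 of the 6 fits; the list had 3 called in 4 of those fits, the ones without control replicate 1, 2 or 3 or without RKIP shRNA replicate 1. PKNOX1, another TALE partner, changed by 0.23 and was not called.

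Of 12 measured trithorax and KMT2A complex genes, 5 rose and 1 fell, with a median change of 0.19. The share called was 50.0%, where 20.2% of all genes, and 29.2% of those at or above the median of all rows, were called. This short list was chosen with earlier results of these data known, so its share is not independent of them. HCFC1 was at 9.65, 9.74 and 9.65 in control and 10.35, 10.41 and 10.42 in RKIP shRNA arrays, a change of 0.72 (limma adjusted p 0.000813). MEN1, the menin partner of KMT2A, changed by 0.63 (limma adjusted p 0.00157), DPY30 by 0.39, RBBP5 by 0.32 and SETD1A by 0.29, while PSIP1, which tethers menin to chromatin, changed by -0.46 (limma adjusted p 0.00964). Without control replicate 3 the number higher was 3. RBBP5 was lost without that array and SETD1A in 4 fits. KMT2A itself was not analysed here. Of 4 measured DOT1L and elongation complex genes none was called by limma, and none had an unadjusted p under 0.05.

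Of 23 measured polycomb genes 4 fell and 1 rose, with a median change of -0.09. The share called was 21.7%, close to the 20.2% of all genes and below the 29.2% of those at or above the median. PHC1, a subunit of polycomb repressive complex 1, was at 9.74, 9.59 and 9.65 in control and 8.54, 8.70 and 8.62 in RKIP shRNA arrays, a change of -1.04 (limma adjusted p 0.000437). EZH1, a methyltransferase for lysine 27 of histone H3, changed by -0.62 (limma adjusted p 0.00127), and these 2 were called whichever array was left out. PCGF2, PHC3 and PHF19 changed by -0.31, -0.26 and 0.29, and each was called in 1 of the 6 fits; the number lower was 2 without control replicate 1, 2 or 3 or without RKIP shRNA replicate 1. KDM6B, a demethylase of the same lysine, changed by -0.35 (limma adjusted p 0.0137), and DHRS3, which limits retinoic acid, by -0.51 (limma adjusted p 0.00878), each 1 of the 2 and 4 genes measured in their lists.

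**Figure D4:**
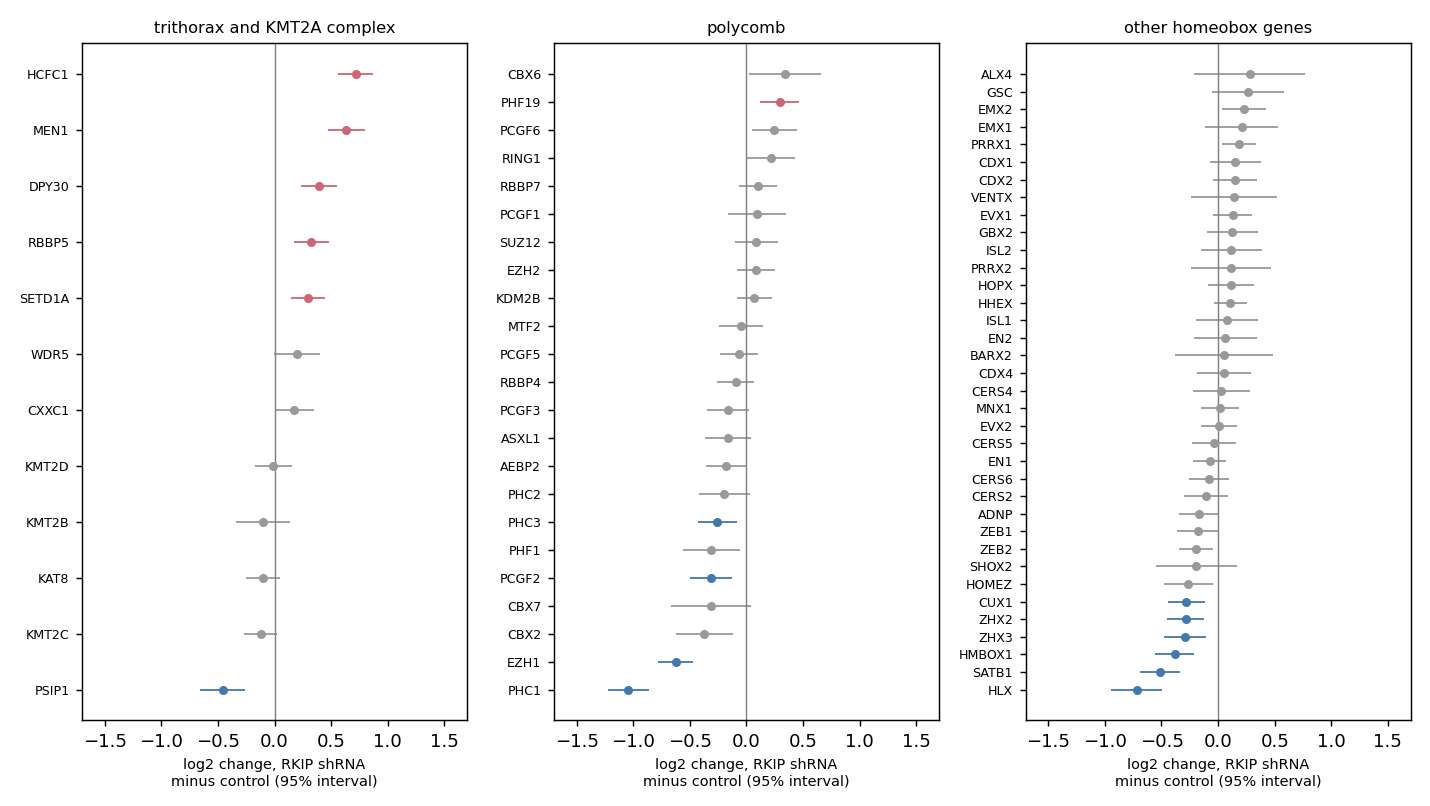
Log2 change (RKIP shRNA minus control) with 95% intervals for genes of the trithorax, polycomb and other homeobox lists; red marks genes called higher, blue genes called lower and grey genes not called. HLX at -0.72, PHC1 at -1.04 and EZH1 at -0.62 lie lowest of those named, and HCFC1 at 0.72 and MEN1 at 0.63 highest.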

How the data were processed

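Total RNA was measured on Affymetrix Human Gene 2.0 ST arrays, 3 per group. The deposited table holds log2 values of 53617 rows; the scale of the authors' values was inferred from their spread, and their normalisation is not given in the sources used here. Rows were named through the array annotation: 16098 had 1 symbol, 0 several and 37519 none. Per gene the row with the highest 6-array mean was kept, giving 14884 genes, all fitted together with limma 3.58.1 in R 4.3.3 (lmFit, eBayes, Benjamini-Hochberg), without a filter or covariate. All 103 members matched RefSeq by gene number, 7 had several probes, and 8 antisense names were dropped. The 103 genes and the related lists were chosen with earlier results of these data known. Named genes were the called members, HOX, PBX and MEIS members above the median of all rows, and the extremes of the other families; related genes are given where called. NKX2-3, POU2F2, POU5F1P3, POU6F1, SIX2, PAX5, IRX2, IRX5, DLX1, DLX2 and PKNOX1 were added after their values were seen. The model was tested on simulated data. Array number limits the precision.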

Additional observations from a re-analysis of the deposited data

How the results depend on the processing

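No called gene changed direction under any alternative tried. Signs were compared for 28 genes. They were those called under some setting, and the HOX, PBX and MEIS genes above the median in both groups. HOXA2, HOXB8, IRX5 and PAX5, also given array by array, were not among them. Of the 28, 4 uncalled ones with small changes changed sign in at least 1 setting. They were HOXC8 (-0.01) and HOXD12 (-0.04) without RKIP shRNA replicate 2, and HOXC9 (-0.05) without control replicate 3. The last was HOXD8, reported at 0.00, in 4 settings (-0.11 to -0.01). The median change of the 103, 0.04 as reported, was -0.01 without RKIP shRNA replicate 2. HOXB9, POU4F1 and TGIF1 were called in all 8 alternatives to normalisation, prior, weights, block, filter, probe choice and tested rows. Some genes not called as reported were called in part of these 8: DLX2 in 3, MEIS2 and POU3F2 in 2 each, HOXD13 and IRX2 in 1 each. With an array left out, DLX2, DLX3, HOXD11, LHX3, NKX2-5, POU3F2 and POU6F1 were each called in 1 of the 6 fits. The number of homeobox genes higher, 1 as reported, was 3 with a trended and robust prior, 2 with array weights, 4 without genes below the median brightness, 0 with all rows tested and 0 at an adjusted p under 0.01; the number lower, 7 as reported, was 3 with all rows tested and 3 at an adjusted p under 0.01. With the replicate block, limma called 0 higher and 3 lower. Same-numbered arrays showed no shared deviation over the genes tested (correlations 0.019, 0.0034 and -0.0163). The labels do not say whether same-numbered arrays were prepared together, and these correlations cannot settle it. Leaving out each array gave 0 to 2 higher and 3 to 5 lower. Over all genes the number called was 3010 as reported, 2142 with the block, 1774 of the named genes with all rows tested, and 1987 to 2397 with an array left out. Against the median of the tested genes, 5.08, 71 homeobox genes lay below in both groups, not 45. Dim probes limit what the arrays can show, since no detection call was used.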

Other observations

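Genes flanking the HOX clusters did not share a direction. Of 10 measured near the HOXB cluster, SNX11 changed by 0.43 and CBX1 by 0.37, and CDK5RAP3 by -0.63 and CALCOCO2 by -0.46, all called by limma; CBX1 was called in 2 of the 6 fits that left out an array. Of 7 near the HOXC cluster, CBX5, the heterochromatin protein HP1 alpha, was 1.99-fold lower (limma adjusted p 0.00181), CALCOCO1 changed by -0.48, and ZNF385A by 0.59 and NPFF by 0.34. ZNF385A was lost without control replicate 2 and NPFF was called in 2 of the 6 fits. AGPS, 1 of 6 measured near the HOXD cluster, changed by 0.27 and was lost in all 6 fits. Limma called none of 9 near the HOXA cluster, with 2 at an unadjusted p under 0.05. The shares called were 40.0% near HOXB, 57.1% near HOXC, 16.7% near HOXD and 0.0% near HOXA. Over all genes tested the share was 20.2%, and it was 29.2% at or above the median of all rows. These short lists were chosen with earlier results of these data known.

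In the order of the RefSeq table, 4 tested genes on each side of each called homeobox gene were looked up after the values were seen. Beside HOXB9 only CALCOCO2 of 8 was called, and HOXB5, HOXB6, HOXB7, HOXB8, MIR196A1, PRAC1 and HOXB13 were not. Near IRX3, RPGRIP1L changed by 0.51 and LPCAT2 by 0.88, and RBL2 by -0.40 and CRNDE by -0.62, all called. C5AR1, the complement C5a receptor gene near MEIS3, changed by -1.66 (limma adjusted p 0.00013). KPTN, also near MEIS3, changed by 0.26 and was called. Near PAX2, SEC31B changed by -1.23 and PDZD7 by -0.79, and TWNK by 0.64 and CHUK, a kinase of the NF-kappa B pathway, by 0.43, all called. Near HOXC4, LOC100240734 changed by -0.75 (limma adjusted p 0.00255), while FLJ12825 at -0.36 and LOC100240735 at -0.24 were not called. RBM26-AS1 near POU4F1 changed by -0.50, DHRS7 near SIX4 by -0.80 and EMILIN2 near TGIF1 by 0.30, each the only called gene of its 8. Of 8 neighbours, limma called 2 higher and 2 lower for IRX3 and likewise for PAX2. For MEIS3 it called 1 higher and 1 lower, and for HOXB9 and HOXC4 1 lower each. Over all genes tested 20.2% were called, and the neighbours were not tested as a set. Among the 8 antisense RNAs left out of the 103, HOXA11-AS had the largest change, -0.51 (limma adjusted p 0.0821), which was not called.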
